A study of Drosophila melanogaster with 10 samples.

Results

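The genes described are 8 regulators of mitochondrial shape, quality and number in the fly: Marf, Opa1, Drp1, Pink1, park, TFAM, srl and ewg. They were chosen by symbol, with no measured value in the rule but with earlier results of these data known. They make up 8 of the 17563 genes counted. Thoraces of adult male Drosophila melanogaster were compared between Esg>yki[S3A] flies (Esg>yki below), which grow gut tumours, and control flies without them. Esg>yki flies carried esg-Gal4, tub-Gal80ts, UAS-GFP and the active yki transgene named UAS-yki-act in the labels, and were sampled at days 2, 8, 14, 20, 26, 32 and 38. Control flies carried the same driver, Gal80ts and GFP transgenes over a wild-type chromosome, and were sampled at days 2, 14 and 38. All flies were reared at 18 °C, moved to 29 °C as adults to switch the transgenes on, held there until day 14 and then returned to 18 °C. The esg driver acts in the progenitor cells of the intestine, so the transgene was directed to another organ than the one sequenced. Its expression in the thoraces was not checked. Each library came from 8 to 10 pooled thoraces, and there was 1 library per genotype and day. The deposited value is assumed to be a mean over 4 pools whose own values were not used here, so no difference between 2 libraries has a replicate check or a test, and every interval covers counting error alone.

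Mitochondria in muscle fuse and divide. Marf (mitofusin) joins outer membranes, Opa1 joins inner membranes and shapes the cristae, and Drp1 is the dynamin-related protein that cuts the organelle. Pink1, a kinase that accumulates on damaged mitochondria, and park (Parkin), the ubiquitin ligase it activates, mark them for removal and limit Marf, and flies without either lose flight muscle. TFAM packages the mitochondrial genome and starts its transcription, and srl and ewg are the fly counterparts of the PGC-1 coactivators and of the transcription factor NRF-1, which in mammals drive nuclear genes for mitochondrial proteins.

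The libraries held 14615109 to 38208955 reads on genes, and the members held 254 to 20128 reads each in any library. Levels are given as RPKM, reads per kilobase of merged exon scaled to the total of reads on genes. Genes of the mitochondrial genome took 24.3% to 32.5% of the reads in 9 libraries and 46.9% in the Esg>yki library of day 14, which leaves fewer reads for every nuclear gene there. The median ratio of all genes tested is therefore printed for each main comparison, together with values under other scalings: TMM, the DESeq2 median of ratios, and reads on nuclear protein-coding genes. As a check of the labelled tissue, all 8 flight muscle markers were detected in every library. Their summed level was 6020, 3616, 1645, 1541, 2814, 3624 and 4011 RPKM from day 2 to day 38 in Esg>yki thoraces and 6607, 5919 and 2923 RPKM at days 2, 14 and 38 in control thoraces. The sum leans on single genes such as Act88F, which ranged from 194 to 3048 RPKM. Of the list, Mhc, sls and Mf serve in the study as markers of muscle tissue. Gut markers summed to 25.9 RPKM in the Esg>yki library of day 2, 10.2 RPKM in that of day 38 and at most 1.55 RPKM in the others. In whole thoraces, fewer cells of a type and less RNA per cell cannot be told apart.

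The 8 genes covered a wide range of levels but most varied little between libraries. Over the 10 libraries the median level was 142 RPKM for Marf, 125.5 RPKM for Pink1 and 59.1 RPKM for Opa1. It was 25.7 RPKM for TFAM, 19.2 RPKM for Drp1 and 12.2 RPKM for park. The regulators srl and ewg were lowest, at 7.18 and 4.61 RPKM. The highest library exceeded the lowest 1.49-fold for Marf, 1.66-fold for Opa1, 1.88-fold for both Drp1 and Pink1, 2.01-fold for ewg and 2.22-fold for park. The 2 genes with the widest spread were TFAM, at 2.86-fold, and srl, at 5.07-fold. For Marf, Opa1, Drp1, park and TFAM the lowest library was the Esg>yki library of day 14, for Marf and TFAM within counting error of day 20. Under each of the 3 other scalings the lowest library of Marf, Opa1, Pink1 and TFAM was instead the Esg>yki library of day 20. Drp1 and park kept day 14 under TMM and DESeq2 but not under nuclear protein-coding scaling.

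**Figure D1:**
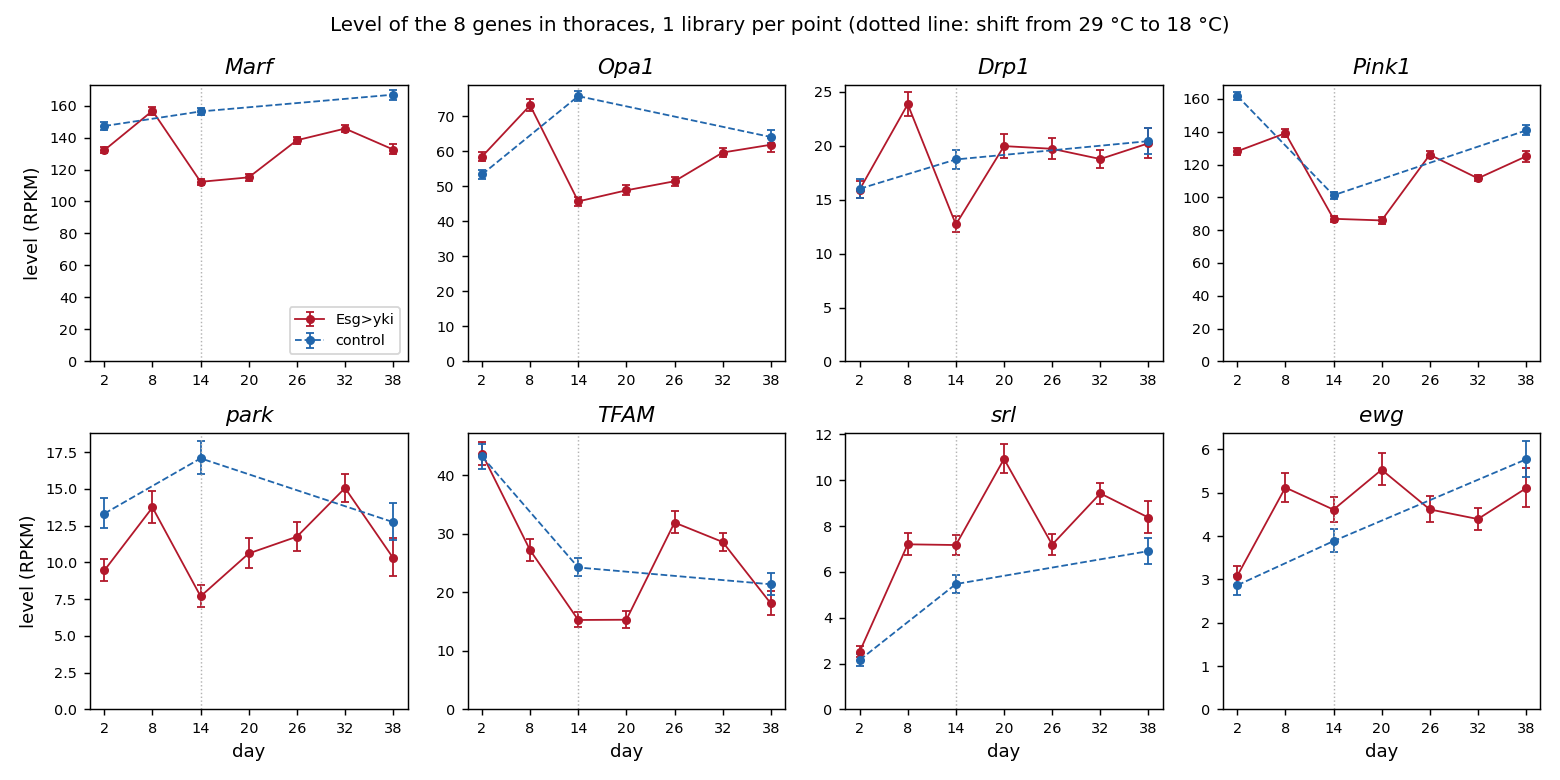
Level of each of the 8 genes in RPKM (vertical axes, linear and starting at 0) against day (horizontal axis), with Esg>yki libraries as joined points on a solid line, control libraries on a dashed line and bars for the 95% counting interval. The level of srl is lowest and that of TFAM highest in both day 2 libraries, whereas Marf stays between 112 and 167 RPKM in all 10.

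The coactivator gene srl (FBgn0037248, chromosome 3R, 4422483 to 4429335, minus strand, in the Release 6 assembly, as for all positions given) had the widest range over the 10 libraries. Its level was 2.52, 7.205, 7.17, 10.9, 7.19, 9.43 and 8.37 RPKM from day 2 to day 38 in Esg>yki thoraces and 2.155, 5.47 and 6.91 RPKM at days 2, 14 and 38 in control thoraces. Both day 2 libraries were low and all 8 later libraries were high, so the day 2 level did not overlap the later levels in either genotype. Day 14 exceeded day 2 by 2.85-fold in Esg>yki thoraces (log2 1.51, 95% counting interval 1.35 to 1.68) and by 2.54-fold in control thoraces (log2 1.34, 1.15 to 1.54). With other scalings the log2 ratio lay between 1.5 and 1.93 in Esg>yki thoraces and between 0.99 and 1.41 in control thoraces. In Esg>yki thoraces day 8 was already 2.86-fold above day 2, a log2 ratio of 1.52 beside a median of 0.35 for all genes, and 1.14 to 1.58 under the other scalings. Day 14 against day 8 gave -0.01, but 0.35 to 0.37 under the other scalings. Esg>yki thoraces had more srl than control thoraces on each shared day, with log2 ratios of 0.22 (day 2), 0.39 (day 14) and 0.28 (day 38) and the same sign under all 4 scalings. None of these 3 differences reached 2-fold.

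The gene of the NRF-1 counterpart, ewg (FBgn0005427, chromosome X, 268509 to 279718, minus strand), was lowest in the same pair of libraries. It stood at 3.08, 5.12, 4.61, 5.53, 4.61, 4.39 and 5.10 RPKM from day 2 to day 38 in Esg>yki thoraces, against 2.86, 3.88 and 5.77 RPKM at days 2, 14 and 38 in control thoraces. The day 14 over day 2 ratio was 0.58 on the log2 scale in Esg>yki thoraces and 0.44 in control thoraces, and in control thoraces it was 0.085 under TMM and 0.09 under DESeq2 scaling. Of the 9 steps in the order of its 10 libraries, 7 were within counting error. Over the 10 libraries the levels of ewg and srl went together (Pearson r = 0.89, a description over libraries that share the total used for scaling). The ratio of srl to ewg within a library, which no scaling can change, was 0.817 and 0.752 at day 2 in Esg>yki and control thoraces and 1.20 to 2.15 in all later libraries.

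TFAM (FBgn0038805, chromosome 3R, 20575245 to 20577010, minus strand) ran the other way. Its level was 43.7, 27.2, 15.3, 15.3, 31.9, 28.6 and 18.1 RPKM from day 2 to day 38 in Esg>yki thoraces, against 43.2, 24.3 and 21.4 RPKM at days 2, 14 and 38 in control thoraces. The day 2 libraries were highest and differed between genotypes by 0.02 on the log2 scale, within counting error and with a sign that turned with the scaling. The Esg>yki libraries of days 14 and 20 were lowest, though days 20 and 38 were under each of the 3 other scalings, and the Esg>yki libraries of days 26 and 32 lay above the control libraries of days 14 and 38. The log2 ratio of day 14 to day 2 was -1.52 (counting interval -1.65 to -1.38) in Esg>yki thoraces, past the cut-off of 1.3 used for time, against -0.83 (-0.95 to -0.72) in control thoraces. TFAM was lower on day 14 than on day 2 under all 4 scalings, with log2 ratios of -1.09 to -1.53 in Esg>yki thoraces and -0.77 to -1.19 in control thoraces. At day 14 the Esg>yki over control ratio of TFAM was -0.67 (-0.82 to -0.52) on the log2 scale, where the median of all genes was -0.36, and it was -0.22 to -0.36 under the other scalings. After the return to 18 °C, day 26 exceeded day 20 by 2.08-fold in Esg>yki thoraces (log2 1.06, median of all genes -0.11, and 1.06 to 1.19 under the other scalings). Day 38 stood at -0.66 against day 32 (median of all genes -0.11, and -0.58 to -0.64 under the other scalings).

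TFAM was also set against the transcripts of the genome that its protein serves. TFAM reads came to 176, 104, 40.5, 65.6, 134, 146 and 81.9 ppm of the reads of the mitochondrial genome from day 2 to day 38 in Esg>yki thoraces, against 202, 103 and 106 ppm at days 2, 14 and 38 in control thoraces. The Esg>yki library of day 14 was lowest, and by this measure it lay at -1.35 on the log2 scale against the control library of that day. That value also holds the difference in its denominator. Genes of the mitochondrial genome took 46.9% of the reads in that Esg>yki library and 29.3% in the control library. TFAM in RPKM gave -0.67 between the same libraries, beside -0.36 for all genes. The rRNA genes of the mitochondrial genome made up 8.14% to 40.2% of its reads and were most abundant at day 2, with 40.2% in Esg>yki thoraces and 35.0% in control thoraces. Without them TFAM came to 294, 137, 44.0, 81.5, 158, 175 and 99.2 ppm in Esg>yki thoraces and 311, 114 and 117 ppm in control thoraces, and the day 14 library of Esg>yki thoraces was again lowest, at -1.37 against control.

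The fusion and fission genes differed less. Marf (FBgn0029870, chromosome X, 6365949 to 6370924, plus strand) had 132, 157, 112, 115.1, 138, 146 and 132 RPKM from day 2 to day 38 in Esg>yki thoraces, against 147, 156 and 167 RPKM at days 2, 14 and 38 in control thoraces. At all 3 shared days the Esg>yki library lay below the control library, with log2 ratios of -0.16 (day 2), -0.48 (day 14) and -0.33 (day 38) and the same sign under all 4 scalings, although the day 14 ratio was as small as -0.03 when scaled to nuclear protein-coding reads. fzo, a paralog of Marf known from the testis, was present at 2.77, 6.54, 3.80, 8.14, 4.68, 5.23 and 6.47 RPKM in Esg>yki thoraces and 2.21, 4.34 and 7.14 RPKM in control thoraces, while the 4 testis markers summed to 1.33 to 5.76 RPKM. It did not follow these markers. Their sum was 1.90 RPKM in the Esg>yki library of day 20, where fzo was highest, and was itself highest in the control library of day 14.

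Opa1 (FBgn0261276, chromosome 2R, 14230611 to 14235449, minus strand) had 58.5, 73.2, 45.7, 48.9, 51.5, 59.7 and 61.9 RPKM from day 2 to day 38 in Esg>yki thoraces and 53.4, 75.8 and 64.1 RPKM at days 2, 14 and 38 in control thoraces. Its highest control library and its lowest Esg>yki library were those of day 14, although the lowest was day 20 under the 3 other scalings. The day 14 ratio was -0.73 (-0.78 to -0.68) on the log2 scale, beside -0.36 for all genes, and -0.29 to -0.43 under the other scalings. At day 2 the ratio was 0.13 and at day 38 it was -0.05, which turned to 0.01 when scaled to nuclear protein-coding reads.

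Drp1 (FBgn0026479, chromosome 2L, 2581281 to 2585430, minus strand) had 15.9, 23.9, 12.7, 19.97, 19.7, 18.8 and 20.2 RPKM from day 2 to day 38 in Esg>yki thoraces, against 16.0, 18.7 and 20.4 RPKM at days 2, 14 and 38 in control thoraces. The Esg>yki libraries of days 8 and 14 were its highest and lowest, with a log2 ratio of day 14 to day 8 of -0.91 where the median of all genes was -0.36, and -0.53 to -0.55 under the other scalings. Day 8 was highest under all 4 scalings, and the control library of day 2 was lowest under nuclear protein-coding scaling. At days 2 and 38 the genotypes differed by -0.01 on the log2 scale, within counting error, where the sign turned with the scaling. At day 14 the ratio was -0.56 (-0.67 to -0.45), with -0.12 to -0.26 under the other scalings.

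Of the quality control pair, Pink1 was 5.93 to 13.6 times as abundant per kilobase as park. Pink1 (FBgn0029891, chromosome X, 6683798 to 6687302, plus strand) had 128, 139, 86.9, 85.9, 126, 112 and 125 RPKM from day 2 to day 38 in Esg>yki thoraces, against 162, 101 and 141 RPKM at days 2, 14 and 38 in control thoraces. It was highest in the control library of day 2 and lowest in the Esg>yki library of day 20 under all 4 scalings. The Esg>yki library of day 14 was next lowest, but the control library of day 14 was under the 3 others. The ratio of Esg>yki to control was -0.34 on the log2 scale at day 2 and -0.17 at day 38 with the same sign under all 4 scalings, while the day 14 value of -0.22 turned to 0.08 to 0.22 under the 3 others. In both genotypes Pink1 was lower on day 14 than on day 2 (log2 ratio -0.56 in Esg>yki and -0.68 in control thoraces) and higher on day 38 than on day 14 (0.52 in Esg>yki and 0.48 in control thoraces), with the same signs under all 4 scalings. Under the 3 others, day 14 against day 2 was -0.14 to -0.57 in Esg>yki and -0.61 to -1.03 in control thoraces. Day 38 against day 14 was then only 0.06 to 0.19 in Esg>yki and 0.37 to 0.40 in control thoraces.

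park (FBgn0041100, chromosome 3L, 21194754 to 21196853, minus strand) had 9.45, 13.7, 7.69, 10.6, 11.8, 15.1 and 10.3 RPKM from day 2 to day 38 in Esg>yki thoraces and 13.3, 17.1 and 12.7 RPKM at days 2, 14 and 38 in control thoraces. It was lower in Esg>yki than in control thoraces on each shared day. The log2 ratio was -0.49 (-0.66 to -0.33) on day 2, -1.15 (-1.32 to -0.98) on day 14 and -0.31 (-0.54 to -0.07) on day 38, with the same sign under all 4 scalings. The day 14 difference was the only one of the 8 genes past 2-fold between genotypes, and it was -0.71 to -0.85, below 2-fold, under the other scalings. The 1687 exonic bases of park overlap CG34261 and asRNA:CR45951 of the opposite strand. The overlap is 1099 bases summed over both genes, so bases under both would count for each. Whether counting used strand was not known. Overlaps of 10 to 347 bases touch Marf, Opa1, Drp1, Pink1 and ewg, whereas TFAM and srl have none.

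Taking the members as a list, the comparison of genotypes asked whether tumours in the gut go with a different level of these genes in the thorax. At day 2, 4 members were higher and 4 lower in Esg>yki thoraces, none past 2-fold, where 4.63% of the 8093 genes tested were past it, and the member median was 0.00 on the log2 scale beside 0.02 for all genes. At day 14, 2 members were higher and 6 lower, and 1 of 8, park, was past 2-fold, where 20% of 8368 genes were. The member median was then -0.52 beside -0.36 for all genes. At day 38, 24 days after the return to 18 °C, 1 member was higher and 7 were lower, none past 2-fold, where 5.32% of 8551 genes were, and the medians were -0.17 for the members and -0.06 for all genes. Taking the 3 shared days together, an edgeR quasi-likelihood test of genotype with day as a block had 6 libraries and 2 residual degrees of freedom. It treats the genotype difference as equal on all days. It called 0 of 8 members at a Benjamini-Hochberg adjusted p of 0.05, where 0.0319% of 9417 genes were called (CG11893, Tektin-C and 1 snoRNA gene). The members nearest to it were park (log2 -0.54, adjusted p = 0.489, lower on 3 of 3 days) and srl (0.43, adjusted p = 0.555, higher on 3 of 3 days), whose unadjusted p were 0.0202 and 0.0396. In the same test 837 of the 9417 genes had an unadjusted p under 0.05. With total reads as the scaling of this test, the unadjusted p was 0.0262 for park and 0.0901 for srl. The other 6 had adjusted p of 0.665 to 0.86. Scaled to nuclear protein-coding reads, the day 14 member median was -0.08 and the all-gene median 0.10. Beside the day 14 comparison, the flight muscle markers summed to 1645 RPKM in Esg>yki and 5919 RPKM in control thoraces and the fat body markers to 745 RPKM in Esg>yki and 2129 RPKM in control thoraces. Act88F had 194 RPKM in Esg>yki and 3048 RPKM in control thoraces. Of the flight muscle markers Mf alone was not lower, at 289 RPKM in Esg>yki and 276 RPKM in control thoraces. Neuron markers went the other way, summing to 69.4 RPKM in Esg>yki and 46.3 RPKM in control thoraces. The glia marker repo had 11.55 RPKM in Esg>yki and 8.32 RPKM in control thoraces. Hemocyte markers summed to 51.9 RPKM in Esg>yki and 55.6 RPKM in control thoraces. The part of these markers in the ratios was not tested.

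**Figure D2:**
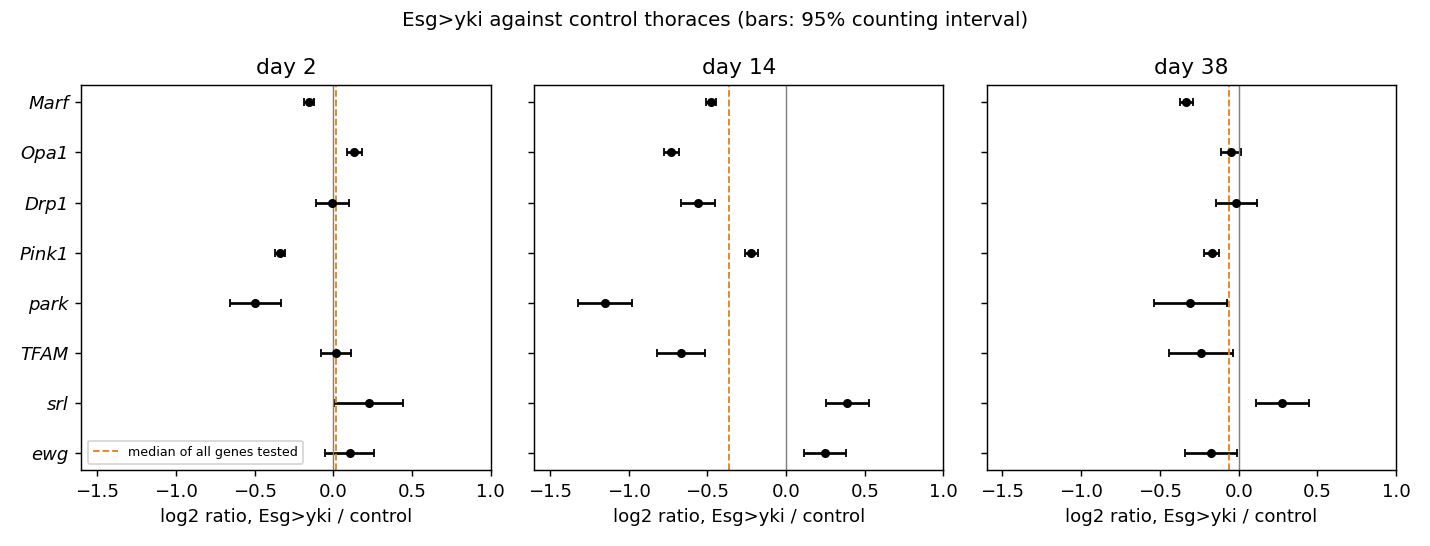
Log2 ratio of RPKM, Esg>yki over control, for the 8 genes (rows) at days 2, 14 and 38 (panels), with 95% counting intervals and the median of all genes tested as a dashed line. The day 14 points of Marf, Opa1, Drp1, park and TFAM lie below the shifted all-gene median of -0.36, while srl (0.39) and ewg (0.25) lie above 0 there, and Pink1 (-0.22) turns positive under other scalings.

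Within each genotype, day 14 was set against day 2 to follow the 29 °C phase and day 38 against day 14 to follow the return to 18 °C, with a larger cut-off of 1.3 on the log2 scale. Time at each temperature goes with age, and in Esg>yki flies with tumour growth or shutdown. Within a genotype these cannot be told apart. In Esg>yki thoraces at day 14 against day 2, srl was past the cut-off upwards and TFAM downwards, 2 of 8 members, where 21.2% of 8433 genes were past it. In control thoraces over the same days srl alone was past it, 1 of 8, where 12% of 8327 genes were, and it missed the cut-off under TMM (0.99) and DESeq2 (1.0) scaling. The member medians were -0.31 in Esg>yki and 0.29 in control thoraces, beside all-gene medians of -0.02 in Esg>yki and 0.34 in control thoraces, and turned to 0.11 in Esg>yki thoraces under nuclear protein-coding scaling and to -0.06 in control thoraces under TMM. At day 38 against day 14 no member was past the cut-off in either genotype, where 17.7% of 8566 genes were in Esg>yki thoraces and 8.54% of 8623 genes in control thoraces. In Esg>yki thoraces all 8 members stood higher on day 38 than on day 14, with a median of 0.33 beside 0.35 for all genes, but the sign held under all 4 scalings for Drp1 (0.67) and Pink1 (0.52) only. Their ratios were smaller under the other scalings, at 0.21 to 0.33 for Drp1 and 0.06 to 0.19 for Pink1. In control thoraces 5 members were higher and 3 lower, with medians of 0.11 for the members and 0.07 for all genes, and the sign turned with the scaling for Marf (0.09, and -0.01 under TMM). The flight muscle marker sums moved from day to day as well, standing at 1645 RPKM on day 14 and 6020 RPKM on day 2 in Esg>yki thoraces, against 5919 and 6607 RPKM in control thoraces. In control thoraces Act88F had 3048 RPKM on day 14 and 588 RPKM on day 2, and sls was higher too, while the other markers were lower. Neuron markers summed to 69.4 RPKM on day 14 and 36.3 RPKM on day 2 in Esg>yki thoraces, against 46.3 and 35.2 RPKM in control thoraces. The part of the markers in the time differences was not tested. The genotype and time comparisons share libraries and are not independent of each other.

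**Figure D3:**
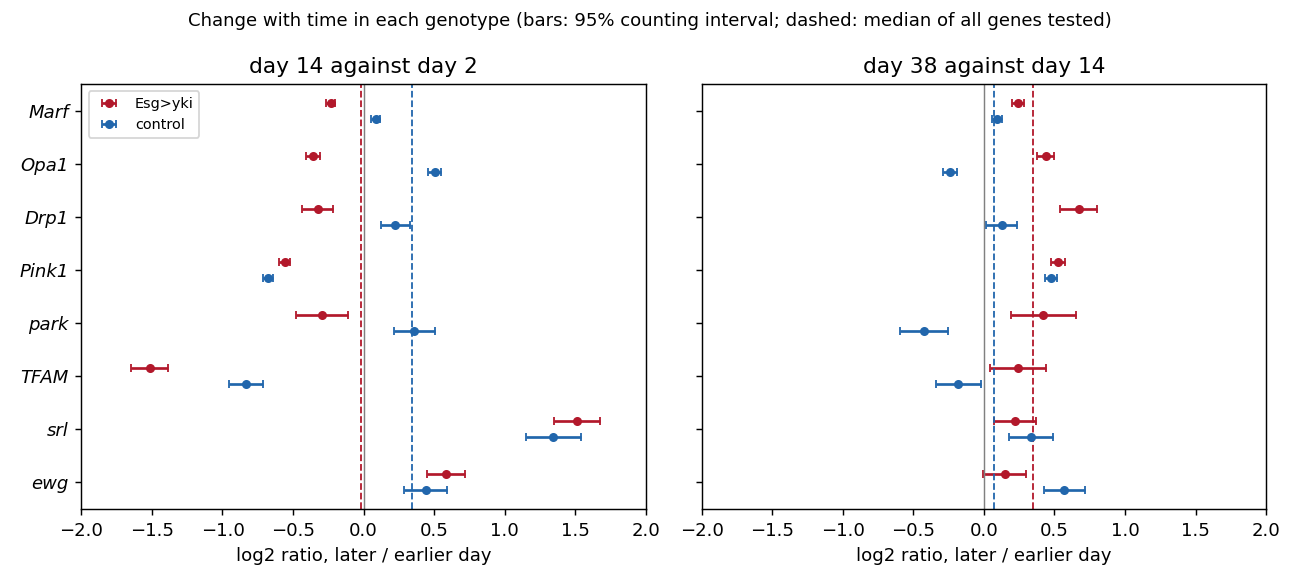
Log2 ratio of the later over the earlier day for the 8 genes (rows) in Esg>yki and control thoraces (colours), day 14 against day 2 and day 38 against day 14 (panels), with 95% counting intervals and dashed lines for the median of all genes tested in each genotype. In both genotypes srl (1.51 and 1.34) lies far to the right and TFAM (-1.52 and -0.83) far to the left at day 14 against day 2. The upward ratios of Esg>yki thoraces at day 38 keep their sign under every scaling for Drp1 and Pink1 alone. Under the other scalings they are 0.21 to 0.33 for Drp1 and 0.06 to 0.19 for Pink1.

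Between consecutive days of the Esg>yki series, the members did not move as a block. From day 2 to day 8, srl was higher by 1.52 and Drp1 by 0.58 on the log2 scale, while TFAM stood at -0.68, beside an all-gene median of 0.35, and these 3 signs held under all 4 scalings. Day 14 was below day 8 for park (-0.84), TFAM (-0.83) and Drp1 (-0.91) with an all-gene median of -0.36, and the ratios of these 3 were -0.45 to -0.55 under the other scalings. Opa1 (-0.68), Pink1 (-0.68) and Marf (-0.48) were lower as well, with -0.10 to -0.32 under the other scalings. For srl (-0.01) and ewg (-0.15) the ratios turned to 0.35 to 0.37 and 0.21 to 0.23 under the other scalings. The first days back at 18 °C, day 20 against day 14, gave 0.65 for Drp1 and 0.61 for srl beside an all-gene median of 0.42. These were 0.21 to 0.23 for Drp1 and 0.16 to 0.18 for srl under the other scalings. TFAM stood at 0.00 and Pink1 at -0.02 there, but TFAM at -0.42 to -0.44 and Pink1 at -0.44 to -0.46 under the other scalings. TFAM and Pink1 were higher at the next interval, day 26 against day 20, by 1.06 and 0.55, where srl stood at -0.60, and these signs held under all 4 scalings.

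Ratios of members within one library do not depend on how libraries are scaled. Drp1 to Marf, fission to fusion, was 0.121, 0.152, 0.113, 0.174, 0.143, 0.129 and 0.153 from day 2 to day 38 in Esg>yki thoraces, against 0.109, 0.120 and 0.123 at days 2, 14 and 38 in control thoraces. The highest values were those of the Esg>yki libraries of days 20, 38 and 8. Esg>yki thoraces stood above control thoraces on day 38 beyond the counting intervals, which overlapped on days 2 and 14. Opa1 to Marf, inner to outer membrane fusion, ranged from 0.372 to 0.467 in Esg>yki thoraces and from 0.363 to 0.485 in control thoraces, and its 2 extremes were both control libraries, day 2 and day 14. It was 0.407 in Esg>yki and 0.485 in control thoraces on day 14, but 0.443 in Esg>yki and 0.363 in control thoraces on day 2, and 0.467 in Esg>yki and 0.384 in control thoraces on day 38. The order of the genotypes on day 14 was thus opposite to that of the other days, with no overlap of the counting intervals on any of the 3. Pink1 to park, the kinase to its ligase, was 13.6, 10.1, 11.3, 8.10, 10.7, 7.41 and 12.1 in Esg>yki thoraces, against 12.2, 5.93 and 11.1 in control thoraces. At day 14 the ratio of Pink1 to park was 11.3 in Esg>yki and 5.93 in control thoraces, the lowest of the 10 libraries.

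**Figure D4:**
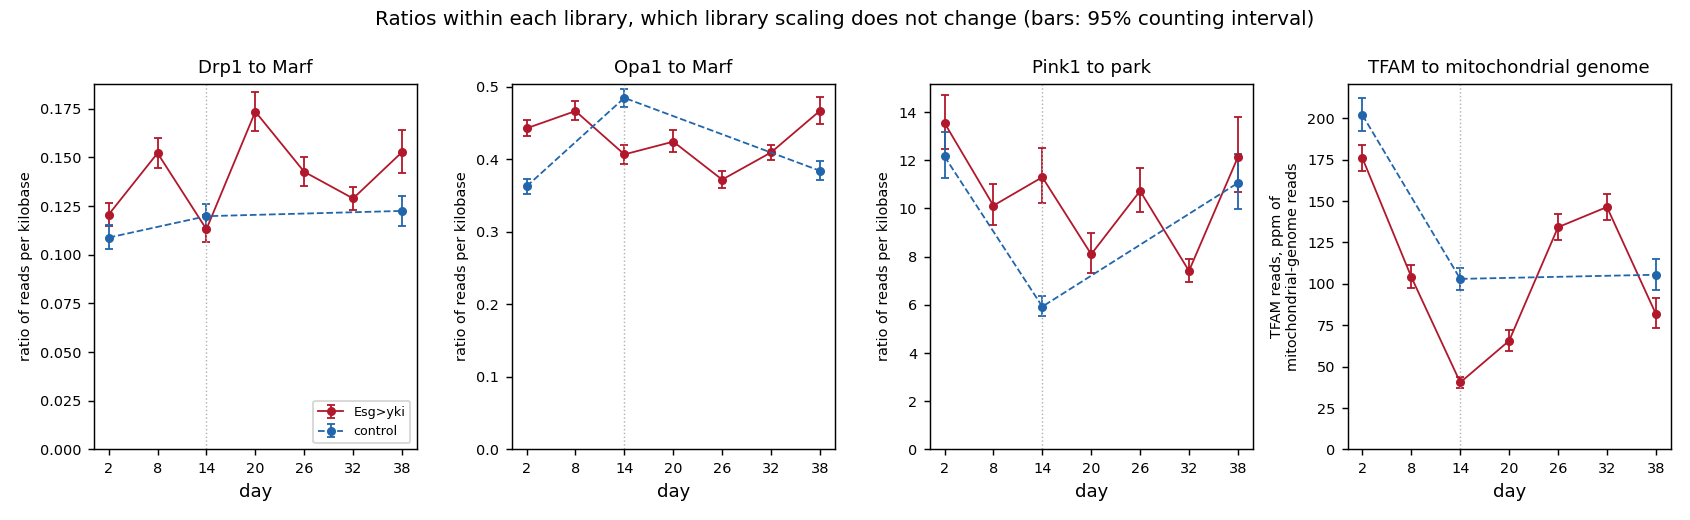
Ratio of reads per kilobase of Drp1 to Marf, Opa1 to Marf and Pink1 to park, and TFAM reads in ppm of the reads of the mitochondrial genome (vertical axes, starting at 0), against day in Esg>yki (solid) and control (dashed) libraries with 95% counting intervals. At day 14 Pink1 to park was 11.3 in Esg>yki and 5.93 in control thoraces, and TFAM to mitochondrial genome reads was 40.5 ppm in Esg>yki and 103 ppm in control thoraces. The mitochondrial genome took 46.9% of reads in Esg>yki and 29.3% in control thoraces on that day.

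A further 50 genes of the same processes were examined as lists, and all 50 were found in the files. At day 14, 46 reached 2 RPKM in Esg>yki or control thoraces, and their median ratio was -0.48 on the log2 scale beside -0.36 for all genes. Of these 46, 44 were lower and 2 higher in Esg>yki thoraces, 8 past 2-fold downwards and 1 upwards (9 of 46, where 20% of all genes were past it), but 24 to 26 were lower and 20 to 22 higher under the other scalings. The calls of EndoG, mtTFB2 and Myc held under all 4 scalings, and the other 6 were lost under the 3 others. The 5 largest falls were those of EndoG, a mitochondrial nuclease (3.72 RPKM in Esg>yki and 11.7 RPKM in control thoraces, log2 -1.66), mtTFB2, a mitochondrial transcription factor (1.11 and 3.11 RPKM, -1.49), the chaperonin Hsp60A (35.8 and 87.5 RPKM, -1.29), and the paired subunits of an inner membrane protease, Afg3l2 (22.8 and 55.8 RPKM, -1.29) and Spg7 (17.1 and 39.3 RPKM, -1.20). The one gene past 2-fold upwards was Myc, a growth regulator, at 36.2 RPKM in Esg>yki and 13.7 RPKM in control thoraces (1.41). By process, 5 of 17 quality control genes, 2 of 10 genes for upkeep and transcription of the mitochondrial genome, 1 of 5 fission and transport genes and 0 of 8 fusion and inner membrane genes were past 2-fold downwards, as were 1421 of the 8368 genes tested, so these small counts are a description only. None of the 47 genes tested at day 2 and of the 46 at day 38 was past 2-fold between genotypes, under any of the 4 scalings.

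Over time the largest fall among the 50 was that of porin, the channel of the outer mitochondrial membrane. It stood at 90.8 RPKM on day 14 and 707 RPKM on day 2 in Esg>yki thoraces (log2 -2.96), and at 182 RPKM on day 14 and 851 RPKM on day 2 in control thoraces (-2.22). In Esg>yki thoraces EndoG was also past the cut-off downwards at day 14 against day 2 (-2.02) and Myc upwards (2.98), 3 of 45 genes in all, where 21.2% of all genes were past it. These 3 calls held under every scaling, and with nuclear protein-coding reads 4 more were past the cut-off, giving 5 upwards and 2 downwards. In control thoraces 5 of 47 were past it upwards, namely the fission factor Fis1 (1.84), Myc (1.60), ntc (1.58), the autophagy receptor ref(2)P (1.35) and Vps13D (1.33). In the same comparison porin was past it downwards, where 12% of all genes were past it in either direction. Of the 5, Fis1 alone was past it under TMM and DESeq2 scaling, where Mul1 was past it downwards besides porin, and Chchd3 too under TMM. At day 38 against day 14, Afg3l2 (2.11), the prohibitin Phb2 (1.65) and Spg7 (1.48) were higher in Esg>yki thoraces, 3 of 46 genes with none past the cut-off downwards, where 17.7% of all genes were past it. Afg3l2 alone was past it upwards under every scaling, and 3 genes under TMM, 1 under DESeq2 and 4 with nuclear protein-coding reads were past it downwards. In control thoraces EndoG (-1.65) and Fis1 (-1.36) were past it downwards under all 4 scalings, 2 of 46 genes, where 8.54% of all genes were.

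The genes whose pattern over the 10 libraries was most like each member were listed by the correlation of log2(RPKM + 1), as a description over libraries that share scaling. TFAM had the closest matches to keep their rank under another scaling: mRpL27, a protein of the mitochondrial ribosome (r = 0.973), CG6345 (0.972) and CG7834 (0.968), of which 2 of 3 were again among its closest when scaled to nuclear protein-coding reads. Pink1 kept 2 of 3, among Gbs-76A (0.918), su(sable) (0.917) and Grik (0.912). Opa1 was closest to pyd3 (0.910), Drp1 to twf (0.966) and park to cN-IIIB (0.922), with 1 of 3 kept each. For Marf (CG8008, 0.936), srl (CG8312, 0.988) and ewg (CG2258, 0.995) none of the 3 was kept. Among the members themselves, TFAM ran against srl and ewg (r = -0.78 each), and Marf ran with park (0.80) and Opa1 (0.79), the pair for Marf and park being 0.55 under nuclear protein-coding scaling.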

How the data were processed

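RNA of pooled thoraces was depleted of rRNA and sequenced on Illumina machines. The submitters' processing notes name FastQC, MultiQC, STAR and DESeq2 and the mouse build mm10, while the gene identifiers are those of FlyBase and the study's methods give a fly annotation. The counting tool, and how it handled strand and multi-mapped reads, were not given in the sources used here. The authors deposited estimated counts per gene, all multiples of 0.25, which were read as means of 4 pools, so values were multiplied by 4 and called reads. Lengths came from the Ensembl 115 annotation of assembly Release 6 (57 of 17563 genes had none, with 0.0760% of reads). RPKM used all reads on genes. Ratios carry exact 95% Clopper-Pearson intervals of the reads, and PCR copies are not independent molecules. A gene was tested where the larger library held 2 RPKM or more, and called past 1 (genotype) or 1.3 (time) on the log2 scale, the 2 cut-offs of the study's methods. With 1 library per condition there was no test on a single day. Genotype over days 2, 14 and 38 was tested with edgeR, day as a block, on the estimated counts rounded to whole numbers, and this test was added after seeing the data.

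Alternatives were TMM (edgeR 4.0.16), median of ratios (DESeq2 1.42.0), nuclear protein-coding reads, pseudocounts of 0.1 and 1 RPKM, a minimum of 10 RPKM or none, the other cut-off and neighbouring libraries. Python 3.11.15, numpy 2.4.6, scipy 1.17.1, pandas 2.3.3 and R 4.3.3 were used, and the code was tested on simulated data. Members and lists were chosen with earlier results of these data known. Of the lists, genes past the cut-off were named, at most 5 in each direction, and fzo always. For each member the 3 most alike protein-coding genes were taken from those with a mean of at least 5 RPKM.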

Additional observations from a re-analysis of the deposited data

Results flagged for a closer look

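In 7 cases a member's ratio had opposite directions in the 2 genotypes, each beyond its counting interval. The differences are given as the log2 ratio in Esg>yki thoraces minus that in control thoraces, and with 1 library per condition none was tested. The share of all genes that met this rule was not counted. The all-gene medians also lay apart, at -0.02 in Esg>yki and 0.34 in control thoraces for day 14 against day 2. For day 38 against day 14 they were 0.35 in Esg>yki and 0.07 in control thoraces.

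For day 14 against day 2, the difference was -0.32 for Marf (-0.23 in Esg>yki and 0.09 in control thoraces), -0.86 for Opa1 (-0.36 and 0.51), -0.55 for Drp1 (-0.33 and 0.23) and -0.66 for park (-0.30 and 0.36), where the median over all genes was -0.37. In Esg>yki thoraces these 4 ratios turned positive when scaled to nuclear protein-coding reads, and the control ratios of Marf and Drp1 turned negative under TMM and DESeq2 scaling. Of 8575 genes, the share with a lower difference than the member ran from 22.1% (Opa1) to 53.3% (Marf).

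For day 38 against day 14, it was 0.68 for Opa1 (0.44 in Esg>yki and -0.24 in control thoraces), 0.84 for park (0.42 and -0.42) and 0.43 for TFAM (0.25 and -0.18), where the all-gene median was 0.28. The Esg>yki ratios of Opa1 and park turned negative under nuclear protein-coding scaling, and that of TFAM under all 3 other scalings. Of 8756 genes, the share with a lower difference than the member ran from 59.5% (TFAM) to 79.45% (park).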

How the results depend on the processing

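Beyond matching the genotypes by day, no paired analysis was possible because each condition had 1 library and the labels give no replicate numbers. The fit over the shared days with day as a block, added after seeing the data, called 0 members with TMM, total reads or nuclear protein-coding reads, and 3, 1 and 3 genes in all. Member medians moved with the scaling and with a neighbouring library, and the cause was not tested. The day 14 median of Esg>yki over control, -0.52, was -0.18 under TMM, -0.22 under DESeq2 and -0.0751 with nuclear protein-coding reads. In Esg>yki thoraces the median for day 14 against day 2, -0.31, was 0.11 with nuclear protein-coding reads and 0.43 when day 8 replaced day 14, and that for day 38 against day 14, 0.33, was -0.077, -0.004 and -0.13 under the 3 scalings and 0.11 with the day 20 library. In control thoraces the median for day 14 against day 2, 0.29, was -0.0615 under TMM and -0.0567 under DESeq2, and that for day 38 against day 14, 0.11, was 0.001, 0.0305 and 0.0318 under the 3 scalings. The call of park at day 14 was lost under all 3 scalings and at the cut-off of 1.3, leaving 0 members. Of the 2 calls in Esg>yki thoraces at day 14 against day 2, 1 was left with nuclear protein-coding reads, a pseudocount of 1, a minimum of 10 RPKM or the day 8 library, and the call of srl in control thoraces was lost, leaving 0, under TMM, DESeq2, the same pseudocount and the same minimum. The other 47 counts and 24 medians stayed close to the values given. Of 304 values of single members, 110 moved beyond their counting interval. Leaving out the mitochondrial rRNA genes, and the other scalings for alike genes and the pathway lists, were added after seeing the data: leaving out the rRNA genes moved TFAM in ppm of mitochondrial genome reads at day 14 against day 2 to -2.74, against -2.12 with them, in Esg>yki thoraces and to -1.45, against -0.97, in control thoraces.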
